A study of Mus musculus with 32 samples.

Results

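The genes described here encode selenium-binding proteins (Selenbp1, Selenbp2), glutathione peroxidases (Gpx1, Gpx3, Gpx4), catalase (Cat), superoxide dismutases (Sod2, Sod3) and metallothioneins (Mt1, Mt2). They were taken by symbol, 10 of the 20560 genes of the deposited expression table. The set was chosen by measured values of these libraries, since Selenbp1 stood among the largest rises in Zbtb9 knockdown cells at day 11, so the day 11 difference between knockdown and control is given below as a description and not tested.

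Cells contain hydrogen peroxide and superoxide as by-products of respiration and fat oxidation, and most of these genes encode proteins that remove them or buffer metals. Superoxide dismutases turn superoxide into hydrogen peroxide, SOD2 in mitochondria and SOD3 outside the cell. Catalase and glutathione peroxidases then break peroxide down, GPX1 and GPX3 being selenocysteine enzymes of the cytosol and the extracellular fluid, and GPX4 the selenocysteine enzyme that reduces lipid peroxides in membranes. SELENBP1 binds selenium without being a selenoprotein and has been described as a methanethiol oxidase, an enzyme that releases hydrogen peroxide and hydrogen sulfide. Metallothioneins are small cysteine-rich proteins that bind zinc and copper, and their genes are classical targets of zinc and glucocorticoids.

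RNA was sequenced from 3T3-L1, an established line of mouse preadipocytes, precursors that store fat once induced with hormones. The control carried the hairpin labelled shCtrl, and Zbtb9 knockdown was made with either of 2 hairpins, shRNA #1 or shRNA #2. Zbtb9 encodes a BTB zinc-finger protein. All groups, control included, received the same course: dexamethasone, isobutylmethylxanthine and insulin from day 0, when the cells were 2 days past confluence, insulin alone from day 3, and plain medium from day 7. Each of days 0, 3, 7 and 11 had 4 control libraries and 2 libraries of each hairpin, 32 in all. The 2 hairpins together make the knockdown group of 4 libraries a day. The labels number the libraries as biological replicates but do not say whether they came from separate infections, so p-values measure the spread between these libraries only. Whether the lines were pools or clones is not given in the sources used here.

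The table gives log2 values that are pulled toward the mean in low genes, so the reads behind them were rebuilt by inverting that transform. Rebuilt totals ran from 22280321 to 31073717 reads in genes per library. "Normalized reads" below are rebuilt reads scaled by each library's size factor, and "log2 difference" is a difference of deposited values, which understates the change of low genes. Tests are limma's moderated test on the deposited values with Benjamini-Hochberg adjustment over all genes tested, called at an adjusted p under 0.05. Only genes with 2 to the power of the deposited value of at least 10 in at least 4 libraries of a fit were tested. This kept 8 of the 10 genes and left out Selenbp2 and Gpx3. The filter acts on the pulled values and not on reads. Selenbp1 passed it with 0 to 13 reads a library at day 0 and 0 to 4 at day 3. Its libraries without a read held values of 3.59 to 3.76. It thus counts among the 8 on those days, and in the tests of a changed knockdown effect, while close to undetected there.

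Zbtb9 itself had few reads. It averaged 14.2 ± 0.594 normalized reads in control and 8.76 ± 2.83 in knockdown at day 0 (SD, n = 4), and 16.8 ± 4.15 against 7.16 ± 2.03 at day 7. The groups did not overlap on these days. At day 3 its normalized reads were 12.6, 6.35, 12.6 and 9.57 in control, 0 and 7.41 with shRNA #1 and 8.99 and 4.39 with shRNA #2, and the groups overlapped. At day 11 they were 17.9, 12.1, 19.96 and 12.1 in control, 8.17 and 19.3 with shRNA #1 and 2.13 and 4.25 with shRNA #2. The day 11 library labelled shRNA #1 replicate 2 thus lay within the control range, a lowering of Zbtb9 not being detectable there at this depth, and it is kept under its label. Without it the day 11 log2 differences between knockdown and control were 3.07 for Selenbp1 (2.97 with it), 0.70 for Mt2 (0.85), 0.65 for Mt1 (0.70), 0.42 for Cat (0.39), 0.31 for Sod2 (0.24), 0.10 for Gpx4 (0.13), -0.07 for Gpx1 (-0.04) and -0.44 for Sod3 (-0.58). As a check of the labelled preadipocyte identity, 8 preadipocyte and fibroblast markers summed to 364125 to 379721 normalized reads in the day 0 control libraries. Of 10 adipocyte markers, Adipoq, Plin1 and Cfd had at most 3 reads in each of these libraries. The other adipocyte markers exceeded 3 reads in at least 1 of them. The summed normalized reads of 10 adipocyte marker genes (Pparg, Cebpa, Fabp4, Adipoq, Plin1, Lpl, Cd36, Lipe, Cidec, Cfd) lay between 20079 and 20663 in the control libraries at day 0 and between 52208 and 56824 at day 7. In the knockdown libraries of day 7 the sum lay between 145088 and 216122. In bulk RNA, fewer cells of a type and less RNA per cell cannot be told apart.

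Selenbp1 and Selenbp2 are near-identical genes on mouse chromosome 3. In GENCODE vM21 on GRCm38, Selenbp1 (ENSMUSG00000068874) spans chr3:94933056-94944758 and Selenbp2 (ENSMUSG00000068877) spans chr3:94693556-94704413, both on the plus strand. Their transcripts were identical at 98.5% of 1712 aligned bases, and 52.3% of the 50-base windows of the Selenbp1 transcript also occur in Selenbp2, so the division of reads between them is uncertain. The 280 bases around each start (250 before, 30 after; RefSeq, GRCm38.p6) are shown because the pair moved together, with capitals on the bases that have no identical partner in the alignment of the other gene.
Selenbp1, chr3:94932833-94933112, plus strand: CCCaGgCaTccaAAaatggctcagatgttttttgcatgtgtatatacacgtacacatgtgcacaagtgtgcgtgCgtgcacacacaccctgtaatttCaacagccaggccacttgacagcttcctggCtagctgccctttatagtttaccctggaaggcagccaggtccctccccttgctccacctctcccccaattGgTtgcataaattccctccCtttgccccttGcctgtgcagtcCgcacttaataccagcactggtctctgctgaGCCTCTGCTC
Selenbp2, chr3:94693323-94693602, plus strand: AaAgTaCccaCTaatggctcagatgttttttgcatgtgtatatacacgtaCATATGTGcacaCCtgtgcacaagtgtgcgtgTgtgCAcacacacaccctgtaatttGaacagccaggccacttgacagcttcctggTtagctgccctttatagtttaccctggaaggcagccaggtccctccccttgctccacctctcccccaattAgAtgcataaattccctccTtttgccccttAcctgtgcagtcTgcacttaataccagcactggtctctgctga
The 2 sequences matched at 254 of 268 aligned bases (94.8%).

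Selenbp1 was close to undetected until day 3 and then came on, far more strongly in knockdown than in control cells. At day 7 the control libraries held 101, 92.3, 60.2 and 79.7 normalized reads, against 679.9 and 615 with shRNA #1 and 693 and 890.4 with shRNA #2. The lowest knockdown library lay far above the highest control library. The means were 83.4 ± 17.8 and 719.6 ± 119 (SD, n = 4), a ratio of 8.63, and the log2 difference was 2.81 ± 0.14 (SE, limma adjusted p = 7.9e-10). Across the other settings this difference ranged from 2.61 to 3.12 and it was called in each of them and with any 1 library left out.

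At day 11, the day that chose the gene, control libraries held 81.3, 80.4, 61.8 and 61.3 normalized reads, shRNA #1 libraries 634 and 556 and shRNA #2 libraries 832 and 835. Levels were higher in 4 of 4 libraries labelled knockdown, with a ratio of means of 10.0 and a log2 difference of 2.97. Within the knockdown, both shRNA #2 libraries lay above both shRNA #1 libraries, and this difference was not tested because the values of this day chose the gene.

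Earlier the gene was near the counting limit. At day 0 rebuilt reads were 2, 8, 12 and 13 in control, 2 and 0 with shRNA #1 and 13 and 0 with shRNA #2. At day 3 they were 1, 3, 3 and 1 in control, 3 and 4 with shRNA #1 and 1 and 0 with shRNA #2. A knockdown difference was not detectable at this depth on either day. The log2 difference was -0.31 (limma adjusted p = 0.41, and -2.15 by voom on the rebuilt reads) at day 0 and 0.01 (limma adjusted p = 0.96) at day 3. In the control cells alone Selenbp1 rose at least 26.3-fold from day 3 to day 7, taking the day 3 level at its limit of 3 reads a library (log2 difference 2.38, limma adjusted p = 9.9e-17, and 5.09 by voom on the rebuilt reads). At day 11 its control libraries overlapped those of day 7.

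Selenbp2 followed the same course at a far lower level. It had no read in any library at day 3. At day 7 control libraries held 4, 1, 5 and 2 reads, shRNA #1 libraries 21 and 21 and shRNA #2 libraries 22 and 43. Every knockdown library was above every control library, and the exact two-sided permutation test over the 8 libraries gave p = 0.029, the smallest this design allows. The ratio of mean normalized reads was 9.13 at day 7 and 9.09 at day 11. Selenbp2 took 3.56% of the reads of the pair in control at day 7 (95% Clopper-Pearson interval 1.85% to 6.14%) and 3.71% in knockdown (3.05% to 4.47%). At day 11 the shares were 4.23% (2.33% to 6.99%) and 3.84% (3.16% to 4.62%). These intervals cover counting error only. Over single control libraries of day 7 the share ran from 1.09% to 7.46%, and at day 0 the control libraries held 3 Selenbp2 reads among 38 of the pair (7.89%, interval 1.66% to 21.4%). Whether the Selenbp2 reads came from Selenbp1 transcripts was not tested.

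**Figure D1:**
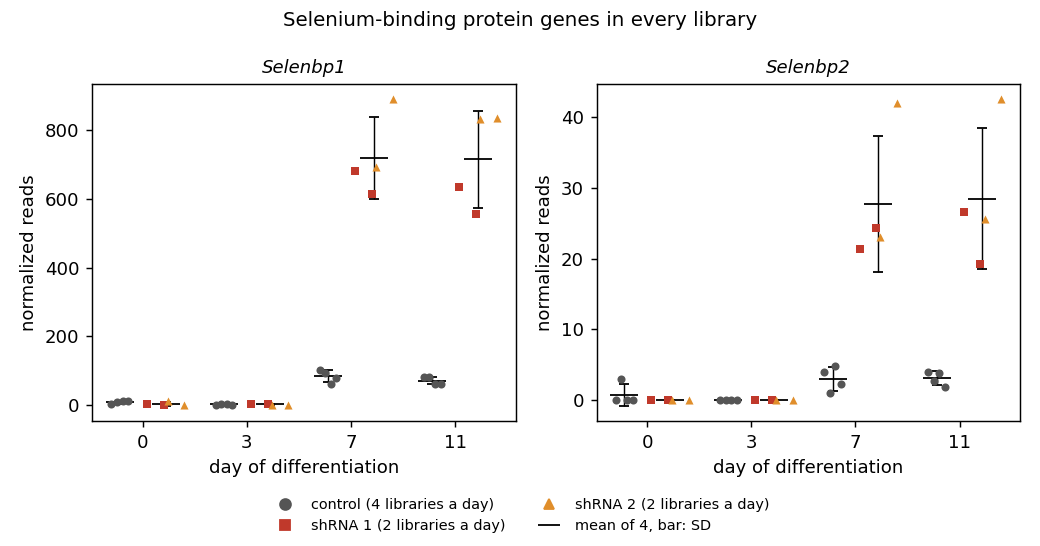
Normalized reads of Selenbp1 (left) and Selenbp2 (right) against day of differentiation on linear axes, with 1 point per library (circles control, squares shRNA #1, triangles shRNA #2), and dashes and bars for mean and SD of 4. Both genes sit near 0 at days 0 and 3, and at days 7 and 11 the knockdown points lie above all control points, with means of 719.6 against 83.4 for Selenbp1 at day 7.

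Over the means of the 12 groups, the genes most like Selenbp1 were Ghrh (Pearson r = 0.996), Lrrc39 (0.993), Ddo (0.990), Mettl7b (0.987) and Ninj1 (0.987), of 12055 genes ranked. These are descriptions over groups that share libraries and a time course, with no test. Ghrh, which encodes growth hormone-releasing hormone, was at 0 normalized reads in both arms at day 0, and at day 7 averaged 77.9 in control and 861 in knockdown. Selenbp2, set aside from the ranking, had r = 0.970.

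Of the 10 genes, few differed between knockdown and control by the test at days 0 and 3, and most did at day 7. At day 0, 1 of the 8 tested genes was called, where 3.25% of the 13216 genes tested were called. At day 3 it was 1 of 8, where 26.7% of 13139 genes were called. The day 0 count was 0 without shRNA #1 replicate 2 or without any 1 control replicate, and the day 3 count was 0 without control replicate 1, 3 or 4 and 4 without shRNA #2 replicate 2. At day 7 it was 7 of 8, with 6 higher and 1 lower in knockdown, where 47.6% of 13299 genes were called, 24.9% higher and 22.6% lower. The median log2 difference of the 8 was 0.33 at day 7, beside 0.006 over all genes tested. At day 11, without a test, 5 of the 8 (Selenbp1, Cat, Mt1, Mt2 and, lower, Sod3) did not overlap between the 4 knockdown and 4 control libraries, where 34.3% of 13281 genes did not overlap. Without the library labelled shRNA #1 replicate 2 it was 6 of 8, where 39.2% did not overlap. Selenbp1 was chosen by its rise on this day, so its place in both counts follows from that choice. The summed adipocyte markers at day 11 lay between 125275 and 150227 in knockdown and between 58967 and 69234 in control. Beside the day 7 counts, 10 of 10 adipocyte markers were called higher in knockdown (median log2 difference 1.96), and 6 of 7 tested preadipocyte and fibroblast markers were called lower (median -0.46), with summed levels of 203428 to 234716 in knockdown and 259280 to 284507 in control. At day 3, 10 of 10 adipocyte markers were likewise called higher (median 0.97). Their sums were 47660 to 65134 in knockdown and 28876 to 34332 in control. Of the preadipocyte and fibroblast markers, 3 of 7 were called on that day, 1 higher and 2 lower. With shRNA #1 alone it was 7 of 7, 1 higher and 6 lower (median -0.52), beside 39.4% of all genes. With shRNA #2 alone it was 6 of 7, 3 higher and 3 lower (median 0.02), beside 31.4%. The part of these markers in the results on the 10 genes and the pathway lists was not tested. Of 5 macrophage markers, Ptprc had at most 3 reads in every library and so had Itgam through day 7. The summed normalized reads of the 5 lay between 97.4 and 154 in knockdown and 70.9 and 107 in control at day 7, and between 313 and 647 and 209 and 308 at day 11, where the groups did not overlap. Among the 3 tested at day 7, Cd68 was called higher by 0.87 and Lyz2 lower by 0.75 in knockdown, and Csf1r was not called. Of 5 endothelial markers, with sums of 26.2 to 48.7 in knockdown and 13.8 to 34.5 in control at day 7, 1 was tested and not called, and Kdr had at most 3 reads. The part of these markers in the results was not tested either.

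**Figure D2:**
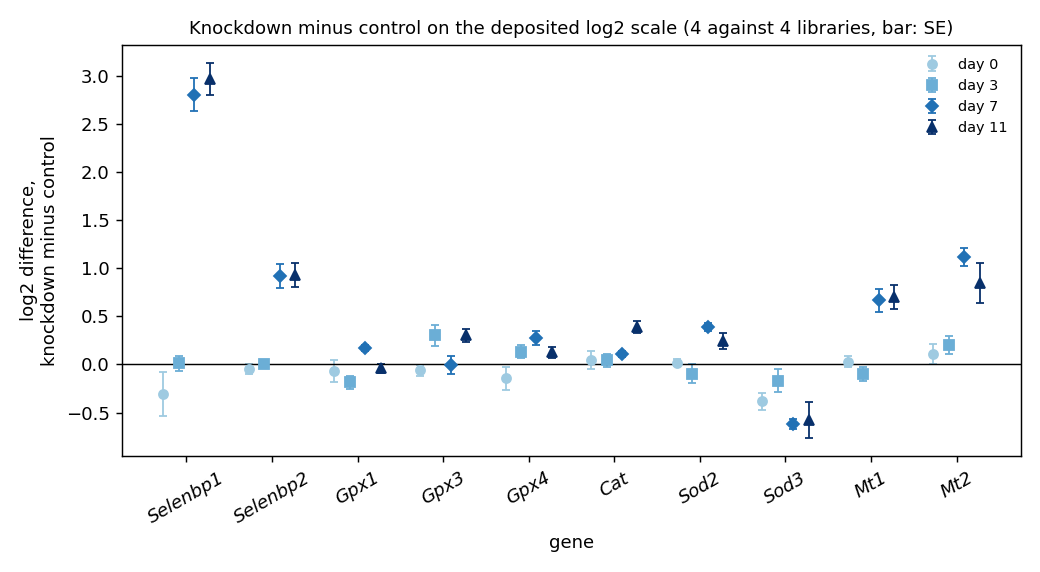
Log2 difference of deposited values, knockdown minus control (vertical axis), for each of the 10 genes (horizontal axis) at days 0, 3, 7 and 11, with SE bars from 4 against 4 libraries. Selenbp1 reaches 2.81 at day 7 and 2.97 at day 11, Mt2 1.12 and 0.85, and Sod3 lies below 0 on all 4 days.

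The metallothionein genes Mt1 and Mt2 were the most abundant of the set per length of exon and rose in knockdown at day 7. Mt1 (ENSMUSG00000031765, chr8:94179082-94180327) and Mt2 (ENSMUSG00000031762, chr8:94172664-94173568) lie side by side on the plus strand of chromosome 8. Metal response elements, the sites of the zinc-sensing factor MTF-1, share the core TGCACNC or TGCGCNC. On either strand, a search of the 280 bases around each start found 3 cores at Mt1, 4 at Mt2, 2 at Selenbp1, 3 at Selenbp2 and none at Gpx1, Gpx3, Gpx4, Cat or Sod2. Of 32851 promoters of this length, 24.1% held at least 1 core, 6.37% at least 2 and 0.405% at least 4. The antioxidant response element core TGACNNNGC was found once, at Mt2 (11.5% of promoters held it). The full consensus motifs of the glucocorticoid and PPAR response elements were found at none of the 9 genes searched. Only 0.00913% and 0.0365% of promoters held them, so their absence from 9 genes carries no information. A match is a run of letters in this window and not a measured site. The windows follow RefSeq starts, which differ from the GENCODE starts for some genes. The Mt2 window ends at 94172647, before the GENCODE start of Mt2 at 94172664. The capitals below mark the metal response element cores.
Mt1, chr8:94178839-94179118, plus strand: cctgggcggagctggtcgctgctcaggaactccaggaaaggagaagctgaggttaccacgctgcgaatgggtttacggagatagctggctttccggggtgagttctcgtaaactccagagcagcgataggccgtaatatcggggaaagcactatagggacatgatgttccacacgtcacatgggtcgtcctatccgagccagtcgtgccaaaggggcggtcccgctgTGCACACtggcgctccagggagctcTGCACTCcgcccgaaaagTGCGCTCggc
Mt2, chr8:94172368-94172647, plus strand: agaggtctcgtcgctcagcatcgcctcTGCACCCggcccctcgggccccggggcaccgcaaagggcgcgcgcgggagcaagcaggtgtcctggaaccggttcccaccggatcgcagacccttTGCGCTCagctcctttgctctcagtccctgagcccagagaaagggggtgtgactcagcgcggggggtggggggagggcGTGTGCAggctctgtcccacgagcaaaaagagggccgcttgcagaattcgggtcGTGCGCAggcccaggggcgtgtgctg

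At day 7 the control libraries held 11387, 12559.8, 13179.8 and 12598 normalized reads of Mt2, shRNA #1 libraries 27895 and 23291 and shRNA #2 libraries 30547 and 29497. All 4 knockdown libraries were above all 4 control libraries, with means of 27808 ± 3202 and 12431 ± 752 (SD, n = 4), a ratio of 2.24. The log2 difference was 1.12 ± 0.07 (SE, limma adjusted p = 2.4e-08). The ratio was 1.85 at day 11, again with no overlap between groups. At day 3 Mt2 differed by 0.20 on the log2 scale (adjusted p = 0.071) and at day 0 by 0.11 (adjusted p = 0.50), with overlapping libraries on both days. The hairpins were apart at day 3: shRNA #1 was above control by 0.35 (limma adjusted p = 6.3e-08) and shRNA #2 by 0.05 (adjusted p = 0.37). Mt2 was lower with shRNA #2 than with shRNA #1 by 0.29 (limma adjusted p = 4.1e-05). That call was lost in 1 fit of all 32 libraries (adjusted p = 0.19). The pooled day 3 difference was called without shRNA #2 replicate 1 (adjusted p = 0.018) or replicate 2 (0.047) and with the hairpins as separate groups (2.2e-05).

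Mt1 showed a smaller difference in the same direction. At day 7 its control libraries held 23485, 25948, 26619 and 24665 normalized reads, shRNA #1 libraries 37049 and 33868 and shRNA #2 libraries 48129 and 44802. The ratio of means was 1.63 and the log2 difference 0.67 ± 0.09 (SE, limma adjusted p = 8.9e-05). The 2 hairpins were themselves apart at day 7, shRNA #2 being higher for Mt1 by 0.38 (limma adjusted p = 0.00013). The ratio was 1.64 at day 11 with no overlap. Mt1 differed by 0.03 at day 0 (adjusted p = 0.80) and by -0.10 at day 3 (adjusted p = 0.23).

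Mt2 overlaps Gm45774 on the opposite strand over 432 of its 588 exon bases (73.5%), and strand use in the counting is not given in the sources used here, so reads of the 2 genes cannot be told apart there. Gm45774 averaged 585 ± 89.2 normalized reads in control and 1146 ± 213 in knockdown at day 7 (SD, n = 4), a ratio of 1.96. Mt2 took 33.0% of the reads of Mt1 and Mt2 together in control at day 7 (32.6% to 33.8% over libraries) and 40.4% in knockdown (38.8% to 43.0%). The libraries of the 2 arms did not overlap in this share at day 7. At day 11 the shRNA #2 libraries, at 32.7% to 36.1%, overlapped the control range of 34.6% to 37.1%, and the shRNA #1 libraries stood at 41.6% to 43.3%.

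**Figure D3:**
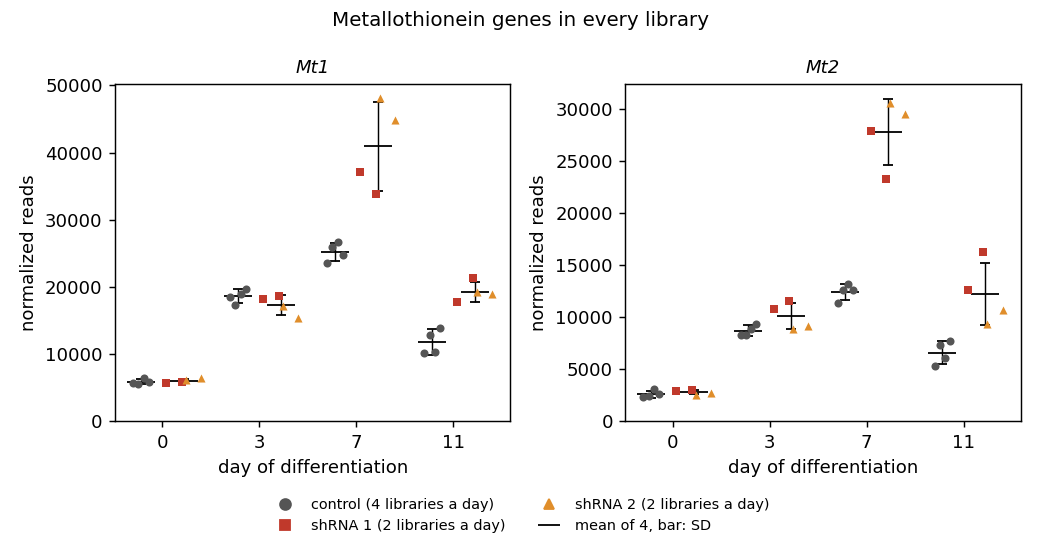
Normalized reads of Mt1 (left) and Mt2 (right) against day of differentiation on linear axes starting at 0, with 1 point per library (circles control, squares shRNA #1, triangles shRNA #2), and dashes and bars for mean and SD of 4. Both genes peak at day 7, where Mt2 averages 27808 in knockdown and 12431 in control, and fall again by day 11.

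Over the 12 group means the genes most like Mt2 were Naaa (Pearson r = 0.987), Nampt (0.986), Coq9 (0.984), Clybl (0.983) and Dgat1 (0.980), again with no test. Nampt, which encodes the rate-limiting enzyme of the NAD salvage pathway, averaged 2167 normalized reads at day 0, 11361 at day 7 and 5133 at day 11 in control cells. Mt1, set aside from the ranking, had r = 0.986.

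Among the glutathione peroxidases, Gpx4 and Gpx1 were abundant and differed between the arms by small amounts, and Gpx3 was close to its counting limit. Gpx4 (ENSMUSG00000075706, chr10:80047166-80056439) held 8327, 7460.4, 8189.7 and 8012 normalized reads in the control libraries of day 7, 10324 and 10783 with shRNA #1 and 8858 and 9057 with shRNA #2. The groups did not overlap, and the log2 difference was 0.27 ± 0.06 (SE, limma adjusted p = 0.0023). The shRNA #1 libraries stood highest, and shRNA #2 was below shRNA #1 by 0.23 on the log2 scale (limma adjusted p = 0.0075), a call lost without shRNA #1 replicate 2 (adjusted p = 0.11) or shRNA #2 replicate 1 (0.053). The groups overlapped at day 11, with a ratio of means of 1.10. Of the 50-base windows of its transcript, 61.7% also occur in 2 other genes, 1 of them the pseudogene Gpx4-ps2, so its count is uncertain to that extent.

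Gpx1 (ENSMUSG00000063856, chr9:108338903-108340343) was called lower in knockdown at day 3 and higher at day 7, and these effects were not tested against each other. At day 3 it held 5359.6, 4927, 5548 and 5237 normalized reads in control, 4828 and 5050.1 with shRNA #1 and 4355 and 4249 with shRNA #2. The groups overlapped and the log2 difference was -0.18 ± 0.06 (SE, limma adjusted p = 0.025). That call was lost without control replicate 1 (adjusted p = 0.072), control replicate 3 (0.088), control replicate 4 (0.061) or shRNA #2 replicate 1 (0.065), without the filter on low values (0.070), and without the trend and robust steps (0.078). At day 7 the log2 difference was 0.17 ± 0.05 (SE, limma adjusted p = 0.0078), the groups not overlapping at 4361 to 4514 in control and 4793 to 5193 in knockdown. The ratio of means at day 11 was 0.972 and the libraries overlapped.

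Gpx3 (ENSMUSG00000018339, chr11:54902453-54910377), the plasma enzyme, never exceeded 15 reads in a library. Its rebuilt reads at day 11 were 1, 0, 0 and 0 in control, 11 and 5 with shRNA #1 and 4 and 4 with shRNA #2. Against the limit of 3 reads a library for the control, the knockdown mean was at least 2.34-fold higher at day 11. At day 7 the reads were 0, 6, 1 and 0 in control, 0 and 4 with shRNA #1 and 2 and 0 with shRNA #2, and the arms overlapped. At day 3 the ratio of mean normalized reads was 3.28 with overlapping arms (exact two-sided permutation p = 0.086).

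Of the dismutases, Sod3 was called lower in knockdown at days 0 and 7 and Sod2 higher at day 7. Sod3 (ENSMUSG00000072941, chr5:52363791-52371418) held 9138, 9293, 9585 and 9117 normalized reads in the control libraries of day 7, 5773 and 5488 with shRNA #1 and 6259 and 6330.1 with shRNA #2. All knockdown libraries were below all control libraries, and Sod3 fell by 0.62 ± 0.05 on the log2 scale (SE, limma adjusted p = 1.7e-07). It was also the 1 gene of the set called at day 0, before induction, where control libraries held 12648, 12825, 13626 and 12279.8, shRNA #1 libraries 8543 and 9086 and shRNA #2 libraries 10934 and 10639. The log2 difference there was -0.38 ± 0.07 (SE, limma adjusted p = 0.022) and the groups did not overlap. This did not hold without shRNA #1 replicate 2 (adjusted p = 0.051) or without any 1 of control replicates 1, 2, 3 and 4 (0.073, 0.083, 0.090 and 0.057), and without the trend and robust steps (0.057). Beside this day 0 difference, the summed preadipocyte and fibroblast markers did not overlap. They lay between 299288 and 342424 in knockdown and between 364125 and 379721 in control. Pooled, 1 of 7 tested was called, lower. Against control, shRNA #1 alone called 6 of the 7, 1 higher and 5 lower, beside 34.7% of all genes. With shRNA #2 alone it was 4, all lower, beside 17.6%. The summed adipocyte markers, at 22309 to 23764 in knockdown and 20079 to 20663 in control, did not overlap either. At day 3 the hairpins differed in the preadipocyte and fibroblast markers, as given above. The part of these markers in the Sod3 differences was not tested. At day 3 the log2 difference was -0.17 (limma adjusted p = 0.27, but 0.019 without shRNA #2 replicate 2, 0.0028 in 1 fit of all 32 libraries and 0.0013 with the hairpins as separate groups) and the groups overlapped, with shRNA #1 at -0.37 (adjusted p = 3.2e-07) and shRNA #2 at 0.03 (adjusted p = 0.68) against control. At day 11 control libraries held 12259, 11743, 10857 and 11077, shRNA #1 libraries 6724 and 5612 and shRNA #2 libraries 9748 and 8992, lower in 4 of 4 libraries labelled knockdown, with the shRNA #1 libraries lowest.

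Sod2 (ENSMUSG00000006818, chr17:13006846-13040063) held 2498, 2417, 2539 and 2712 normalized reads in the control libraries of day 7, 3209.8 and 3442 with shRNA #1 and 3465 and 3333 with shRNA #2. No library overlapped, and the log2 difference was 0.39 ± 0.05 (SE, limma adjusted p = 1.5e-05). At day 3 it differed by -0.09 (adjusted p = 0.40), with the hairpins on either side of the control: 6110.1 and 6294 with shRNA #1, 7908 and 7777 with shRNA #2 and 7592, 7220.2, 7639 and 7404 in control. The ratio of means at day 11 was 1.20 and the library labelled shRNA #1 replicate 2, at 3837, lay within the control range.

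Catalase (Cat, ENSMUSG00000027187, chr2:103453849-103485160, minus strand) differed little between the arms at day 7 and by more at day 11, which was not tested. At day 7 control libraries held 3209.9, 3164, 3268 and 3202 normalized reads, shRNA #1 libraries 3277 and 3443 and shRNA #2 libraries 3508 and 3666. The groups just failed to overlap, and the log2 difference of 0.11 ± 0.05 was not called (limma adjusted p = 0.080). It was called in 1 fit of all 32 libraries (adjusted p = 0.036), with the hairpins as separate groups (0.026) and without shRNA #1 replicate 1 (0.049), and shRNA #2 alone was above control by 0.15 (adjusted p = 0.013). At day 11 control libraries held 2915, 2989, 3293 and 2877, shRNA #1 libraries 4293 and 3726 and shRNA #2 libraries 3947 and 4012. Levels were higher in 4 of 4 libraries labelled knockdown, with a ratio of means of 1.32. Of the tested genes at day 11, Cat had the smallest log2 difference (0.39) among those whose groups did not overlap, and Sod2, at 0.24, the largest among those whose groups overlapped.

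**Figure D4:**
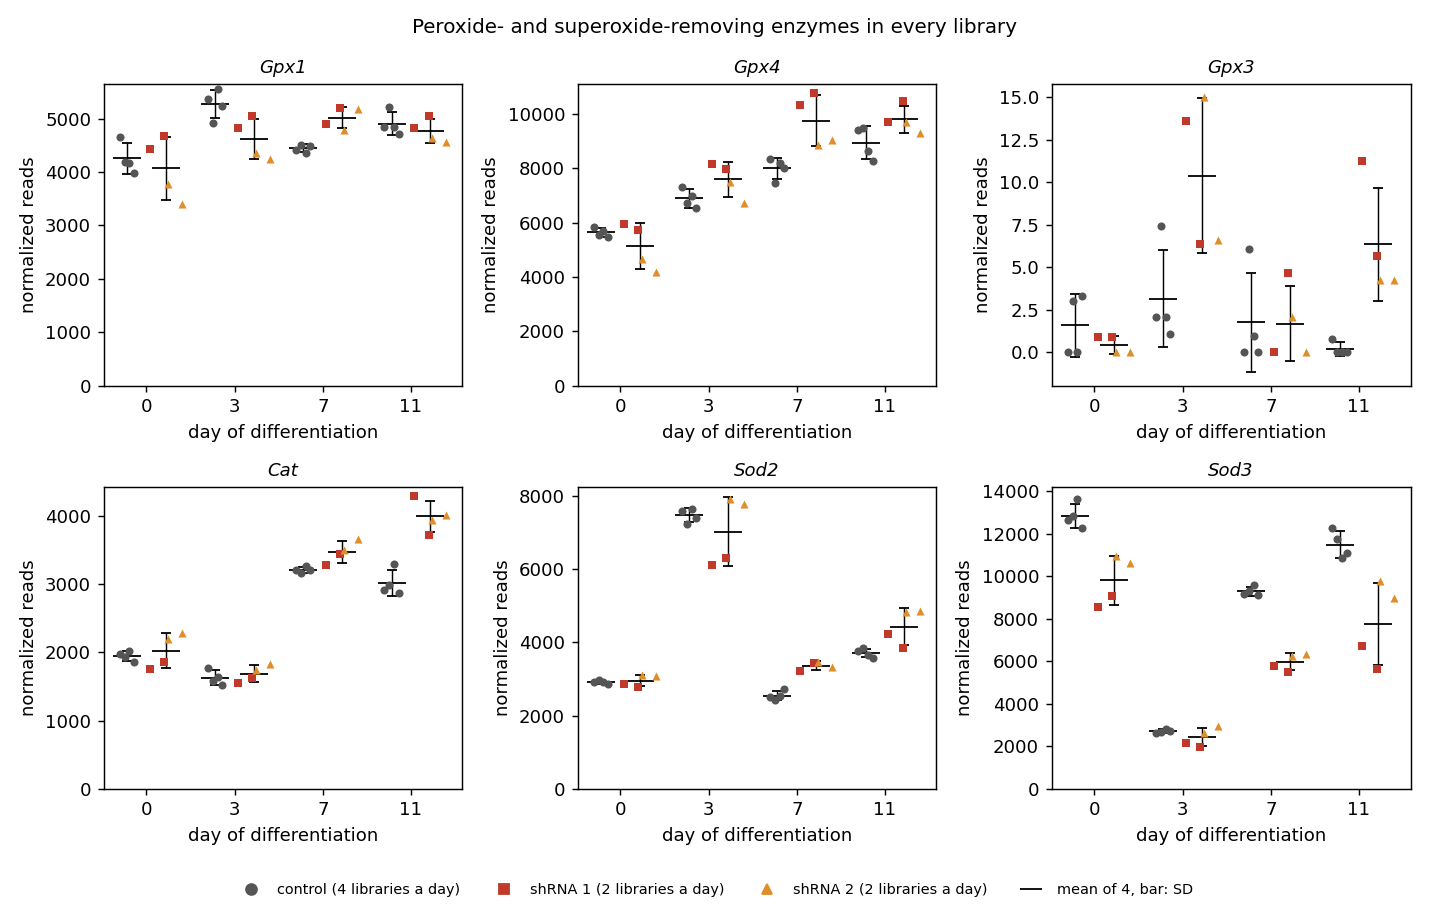
Normalized reads of 6 enzyme genes (1 panel each) against day of differentiation on linear axes, with 1 point per library (circles control, squares shRNA #1, triangles shRNA #2), and dashes and bars for mean and SD of 4. Sod3 is lowest at day 3 in both arms, Sod2 peaks at day 3, and Cat and Gpx4 are higher at days 7 and 11 than at day 0.

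In control cells most of the tested genes were called at each step of differentiation. From day 0 to day 3, under the hormone cocktail, 7 of 8 tested genes were called, 5 higher and 2 lower, where 76.6% of 13421 genes were called, 38.3% higher and 38.2% lower. Mt2 rose by 1.70 on the log2 scale, Mt1 by 1.61 and Sod2 by 1.31, while Gpx1 and Gpx4 rose by 0.30 and 0.28. Sod3 fell by 2.17, from a mean of 12845 to 2704 normalized reads, and Cat fell by 0.25. The largest adjusted p among these 7 was 7.7e-06 in limma's test.

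From day 3 to day 7, when insulin alone was present, 8 of 8 were called, 6 higher and 2 lower, where 74.2% of 13421 genes were called, 37.6% higher and 36.6% lower. Sod3 returned by 1.72 on the log2 scale, Cat rose by 0.94, Mt2 by 0.50, Mt1 by 0.42 and Gpx4 by 0.21. Sod2 fell by 1.50, back to 2542 ± 125 normalized reads (SD, n = 4), and Gpx1 fell by 0.24. From day 7 to day 11, without hormones, 6 of 7 were called, 4 higher and 2 lower, Selenbp1 being left out of this test, where 55.0% of 13421 genes were called, 28.9% higher and 26.1% lower. Mt1 fell by 1.07 and Mt2 by 0.90, to ratios of 0.468 and 0.530 of their day 7 means. Sod2 rose by 0.52, Sod3 by 0.30, Gpx4 by 0.16 and Gpx1 by 0.14. Cat differed by -0.09 (limma adjusted p = 0.094), and was called without control replicate 3 of day 11 (-0.13, adjusted p = 0.016). Consecutive steps share the libraries of the day between them.

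The test of whether the knockdown effect itself differed between day 7 and day 0 called 5 of the 8 genes, all higher, where 31.1% of 13506 genes were called, 17.2% higher. The change in effect was 3.12 ± 0.23 for Selenbp1 (SE, limma adjusted p = 5.0e-11, and 5.28 by voom on the rebuilt reads), 1.01 ± 0.13 for Mt2 (adjusted p = 1.3e-06) and 0.64 ± 0.11 for Mt1 (adjusted p = 9.6e-05). It was 0.42 for Gpx4 (adjusted p = 0.0075) and 0.37 for Sod2 (adjusted p = 0.0017). For Sod3, lower on both days, it was -0.24 (adjusted p = 0.14), for Gpx1 0.24 (adjusted p = 0.071) and for Cat 0.06 (adjusted p = 0.66). Between day 3 and day 0, limma called 0 of the 8, with 1 at an unadjusted p under 0.05 (Gpx4), where 7.57% of 13506 genes were called. Voom on the rebuilt reads also called 0, and the count was 1 without the day 0 library shRNA #1 replicate 1.

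The 2 hairpins differed from each other for several of these genes already before induction. At day 0, 5 of 8 were called between shRNA #2 and shRNA #1, where 35.0% of 13216 genes were called. Gpx4 was lower with shRNA #2 by 0.39 and Gpx1 by 0.34, while Cat and Sod3 were higher by 0.30 and 0.28 (limma adjusted p from 8.2e-08 to 0.00037). The fifth, Sod2, at 0.12, lost its call on leaving out any 1 of the 4 hairpin libraries (adjusted p 0.058 and 0.20 without shRNA #1 replicates 1 and 2, 0.13 and 0.11 without shRNA #2 replicates 1 and 2). At day 3, 6 of 8 were called (19.6% of all genes), with Sod3 higher by 0.40 and Sod2 by 0.33 with shRNA #2. At day 7, 3 of 8 were called (16.4%), a count that fell to 1 without shRNA #1 replicate 2 or without shRNA #2 replicate 1. At day 11, where Selenbp1 was left out of the test, 2 of 7 were called (22.0%), 1 without the library labelled shRNA #1 replicate 2, and Sod3 was higher with shRNA #2 by 0.59 (limma adjusted p = 9.7e-05).

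Against the shared control libraries, each hairpin alone gave the day 7 pattern. With shRNA #1, 7 of 8 were called at day 7, all but Sod3 toward higher levels, where 52.0% of all genes were called. With shRNA #2 it was 8 of 8, again all but Sod3 toward higher levels, where 46.0% were called, or 5 of 8 without shRNA #2 replicate 2. Selenbp1 was higher by 2.68 ± 0.14 with shRNA #1 and 2.94 ± 0.14 with shRNA #2 (SE, limma adjusted p = 9.5e-14 and 3.2e-14). Mt2 was higher by 1.01 and 1.24, and Sod3 fell by 0.70 and by 0.54. At day 0 shRNA #1 called 1 of 8 (34.7%), namely Sod3, and shRNA #2 called 4 of 8 (17.6%), namely Gpx4, Sod3, Gpx1 and Cat. Without shRNA #2 replicate 2 of day 0, Gpx1 (adjusted p = 0.13) and Cat (0.10) were not called. The shRNA #1 count was 2 or 3 without either shRNA #2 library or without control replicate 1, 3 or 4. At day 3 the hairpins called 4 of 8 (39.4%) and 2 of 8 (31.4%, or 1 without shRNA #2 replicate 2).

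The wider pathway was read from 5 lists of 74 genes in all, 73 in the table and 72 tested. In knockdown at day 7, 35 were called, 21 higher and 14 lower, with a median log2 difference of 0.06 beside 0.006 over all genes. The share called, 48.6%, was near the 47.6% of all genes. With shRNA #1 alone it was 40, 27 higher and 13 lower, and with shRNA #2 alone 42, 21 higher and 21 lower, beside 52.0% and 46.0% of all genes. Of 19 peroxiredoxin, thioredoxin and related genes, 8 were higher and 5 lower (median 0.16), among them Msra, a methionine sulfoxide reductase, up by 0.89, and Gpx7, a peroxidase of the endoplasmic reticulum, which fell by 0.43. Of 16 glutathione genes, 3 were higher and 2 lower, led by Gstz1 (up 1.39) and Mgst3 (up 0.91), while Slc7a11, the cystine importer, fell by 0.48. The hairpins were apart in this list. Against the shared control, 6 were higher and 0 lower with shRNA #1, and 3 higher and 5 lower with shRNA #2. Between the hairpins, 10 of the 16 were called, all lower with shRNA #2. Of all genes, 16.4% were called there, and 1183 of 13299 were lower. Of 10 adipocyte markers, 7 were called between the hairpins, 1 higher and 6 lower with shRNA #2, and their part was not tested. Slc7a11 differed from control by -0.22 with shRNA #1 (limma adjusted p = 0.14) and by -0.73 with shRNA #2 (adjusted p = 3.1e-05). Of 11 genes of the Nrf2 axis, the Maff transcription factor gene was higher by 0.79 and 4 were lower, with Bach1, a repressor of that axis, down by 0.43. Of 18 tested genes for selenoproteins and selenocysteine insertion, 5 were higher and 2 lower, and Selenon fell by 0.61. Of 8 metal-handling genes, 4 were higher and 1 lower. Named outside the rule after their values were seen, they were the zinc importer genes Slc39a8 (0.58) and Slc39a10 (0.22), the copper importer gene Slc31a1 (0.56), the zinc exporter gene Slc30a1 (0.30) and, lower, the copper pump gene Atp7a (-0.38). Adjusted p-values of the genes named here ran from 7.1e-10 for Gstz1 to 0.047 for Slc39a10 in limma's test.

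On the earlier days fewer genes were called, in the lists and among all genes. At day 0, 3 of 72 (4.17%) were called in knockdown, beside 3.25% of all genes: Gclc, a subunit gene of glutathione synthesis, was higher by 0.36, Chac1, which degrades glutathione, fell by 0.67 and Selenop, the plasma selenium carrier, fell by 0.21. Each hairpin alone called more at day 0, shRNA #1 32 (16 higher, 16 lower) and shRNA #2 16 (1 higher, 15 lower), beside 34.7% and 17.6% of all genes. At day 3, 27 (37.5%) were called, 15 higher and 12 lower (median 0.01), beside 26.7% of all genes and the 10 of 10 adipocyte markers called higher on that day. The zinc importer gene Slc39a8 was higher by 0.84, Mgst3 by 0.42, Msra by 0.37 and Prdx3 by 0.36. Gstm1 fell by 0.48, Mafg by 0.41, Slc7a11 by 0.38 and Selenop by 0.34.

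In control cells, 59 of the 72 (81.9%) were called from day 0 to day 3, 35 higher and 24 lower, beside 76.6% of all genes. The zinc and iron importer gene Slc39a14 rose by 3.27, Slc7a11 by 2.94 and Gclc by 2.18, beside the rise of Mt1 and Mt2 on the same day. The glutathione S-transferase genes Gstt1, Gstm1 and Gstm2 fell by 2.14, 1.67 and 1.53, beside the fall of Sod3. From day 3 to day 7, 61 (84.7%) were called, 31 higher and 30 lower, beside 74.2% of all genes. Maff rose by 2.55, Gstm1 by 2.17 and Gstm2 by 1.69, while Slc7a11 fell by 2.29, Slc39a14 by 1.55 and the zinc exporter gene Slc30a1 by 1.38.

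Levels were compared between genes as reads per kilobase of summed exons and per 1e6 reads in genes, a length that overstates the transcript for genes with long alternative exons such as Sod2. In control cells at day 0 the order was Mt1 (192 ± 13.1), Mt2 (179 ± 23.3), Sod3 (139.7 ± 6.41), Gpx4 (133 ± 4.45), Gpx1 (120.1 ± 8.81), Cat (30.3 ± 1.25) and Sod2 (11.8 ± 0.208), each ± SD over 4 libraries. The ranges of mean ± SD overlapped between Mt1 and Mt2, between Sod3 and Gpx4 and between Gpx4 and Gpx1. Selenbp1, Gpx3 and Selenbp2 were all below 0.2. In knockdown cells at day 7 the order was Mt2 (1777 ± 226), Mt1 (1236 ± 220.1), Gpx4 (212 ± 17.4), Gpx1 (131 ± 5.13), Sod3 (59.9 ± 4.91), Cat (49.9 ± 3.00), Sod2 (12.6 ± 0.609) and Selenbp1 (11.9 ± 2.05). The ranges of Selenbp1 and Sod2 overlapped, Selenbp1 having been at 0.0354 ± 0.0326 in knockdown at day 3. Selenbp2 stood at 0.458 ± 0.161 and Gpx3 at 0.0349 ± 0.0453.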

How the data were processed

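The authors deposited 1 table of log2 values for 20560 genes in 32 libraries of total RNA, made with a TruSeq RNA kit per the labels' protocols. The values are in a regularized-log form, judged from the table, and range from -1.56 to 17.99. The submitters' processing notes name TopHat2 2.1.0, Bowtie2 2.2.6, SAMtools 1.3.1 and HTSeq 0.6.1. Genome build, annotation and strand setting are not given in the sources used here.

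The transform was inverted to whole reads: 95.7% of values came within 0.1 of a whole read (20% would by chance), and 8 of the 10 genes were whole in all libraries. The largest deviation of the other genes, Mt1 and Mt2, was 0.478 reads. Over all genes, 87.5% were whole in all libraries. The inversion was run on simulated reads of 19814 genes and returned 100.00% of the values exactly. That simulation used the transform and settings that the inversion assumes. It checks the procedure only, and cannot show that the deposited values follow this transform. Groups came from the sample titles. limma 3.58.1 (R 4.3.3; trend and robust empirical Bayes) was fitted to the deposited log2 values over the 8 libraries of a day, over the 16 control libraries, or over 24 libraries of 3 days for the change of the knockdown effect. In simulated 2-fold changes of 200 genes at day 7, 90% were recovered on 13237 genes, 7.22% of calls were false, and estimates were 0.917 of the truth. The same simulation at day 3 (13114 genes) recovered 93%, with 9.76% of calls false, and at day 0 (13187 genes) 94.5%, with 4.06% false. Scaling to equal totals or medians, other filters, other variance settings, voom on rebuilt reads, a replicate block and leaving out each library were tried. Promoters matched 9 of 10 genes in RefSeq. Proteins and Sod3's promoter are not shown.

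The genes, and the lists of pathway and marker genes, were chosen with earlier results of these data known. Genes named were the 10 members, Zbtb9, 10 adipocyte markers, the 5 genes most like Selenbp1 and Mt2 over group means (predicted genes and the paralog set aside), and of the called pathway genes up to 4 largest rises and 4 largest falls in knockdown and 3 each way in the control steps.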

Additional observations from a re-analysis of the deposited data

Results flagged for a closer look

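For 5 genes the knockdown effect differed between day 7 and day 0 by limma's test of the difference itself. On the log2 scale the change in effect was 3.12 for Selenbp1, 1.01 for Mt2, 0.64 for Mt1, 0.42 for Gpx4 and 0.37 for Sod2, all toward higher levels in knockdown at day 7. The 5 stand beside 31.1% of all genes tested that were called in this comparison.

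Of 40 sets of 4 control libraries (10 genes on 4 days), 2 held a library set apart from the other 3, where chance would be expected to set apart about 1 in 20. In the day 0 control libraries Selenbp2 had 1 value of 2.32 on the deposited log2 scale while the other 3 were at most 2.11, which is 3 reads against 0. In the day 11 control libraries Gpx3 had 1 value of 1.39 beside 1.34 in the other 3, which is 1 read against 0.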

How the results depend on the processing

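The counts of called genes changed by more than 1.5 times only in the small or within-hairpin comparisons. Without the trend and robust steps, the count in knockdown against control fell to 0 at days 0 and 3, that of shRNA #2 against control to 2 at day 0 and 1 at day 3, and that of shRNA #2 against shRNA #1 to 3 at day 3 and 1 at day 7. In 1 fit of all 32 libraries, knockdown against control gave 2 at day 0 and 4 at day 3, shRNA #1 against control 2 at day 0, shRNA #2 against control 1 at day 3, and the change of effect from day 0 to day 3 gave 2. With the hairpins as separate groups, knockdown gave 2 and 6 on those days. Gpx4 was the gene gained at day 0 in both of these settings, and at day 3 both added Gpx4, Sod2 and Sod3 and the latter also Mt1 and Mt2. Testing all genes unfiltered, knockdown at day 3 gave 0 and shRNA #2 against shRNA #1 on that day gave 3. The cause was not tested. Knockdown against control at day 7 gave 6 to 8 called genes under all settings run.

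With the replicate number as a block, knockdown against control gave 0 called genes at days 0 and 3, and shRNA #1 against control gave 2 at day 0. With the block, limma's adjusted p was 0.0843 for Gpx1 at day 7, 0.30 for Gpx1 at day 3 and 0.54 for Sod3 at day 0, none called. Same-numbered libraries of 1 day correlated in their deviations by -0.005 to 0.215 (median 0.042), with 3 of 24 pairs above 0.1, so the numbers were not taken to pair the libraries.

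Leaving out 1 library gave 0 to 1 called genes for knockdown against control at day 0, 0 to 4 at day 3 and 7 to 8 at day 7. It gave 1 to 3, 4 to 5 and 6 to 7 for shRNA #1 against control at days 0, 3 and 7, and 2 to 5, 1 to 3 and 5 to 8 for shRNA #2 against control. For shRNA #2 against shRNA #1 it gave 4 to 6, 4 to 6, 1 to 4 and 1 to 3 at days 0, 3, 7 and 11, and for the change of effect from day 0 to day 3 it gave 0 to 1. Of the 8 genes past the filter on low values, 5 did not overlap at day 11, and 5 to 6 without 1 library. This stands beside 34.3% of all such genes, and the counts include Selenbp1, which was chosen by its rise on that day.

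Directions turned only in differences that were not called. Selenbp1 at day 3 ranged from -0.0319 to 0.0524 without 1 library, and was -0.29 by voom on the rebuilt reads. At day 0, leaving out 1 library gave -0.138 to 0.0101 for Gpx1, -0.0107 to 0.111 for Cat, -0.0029 to 0.0476 for Sod2 and -0.0002 to 0.074 for Mt1. Of 804 single-gene values under other settings, 760 kept their call and direction. Depth limits Selenbp2, Gpx3 and, before day 7, Selenbp1.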
